A study of Mus musculus with 10 samples.

Results

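The genes described here are 7 genes that mark regulatory T cells (Tregs): Foxp3, Il2ra, Ikzf2, Ikzf4, Ccr8, Tnfrsf4 and Tnfrsf18. They were chosen by gene symbol, and all 7 were found among the 35958 features of the table, each on 1 row. The tumors were WEHI-164 fibrosarcomas, 1 cultured mouse line grown under the skin of young adult female BALB/c mice of WT genotype, and all 10 were untreated when the sequenced tissue was cut out. A hydrogel that releases poly(I:C), a synthetic double-stranded RNA, was then laid on the residual tumor. Responders (RS, n = 5, tumors 5, 9, 10, 11 and 12) and non-responders (NR, n = 5, tumors 1, 2, 3, 6 and 7) were named afterwards, as mice whose residual tumor regressed fully and mice whose tumor grew on without delay. Each mouse gave 1 library, and p-values measure the spread between mice. RNA came from unsorted tumor tissue, so fewer cells of a type and less RNA per cell cannot be told apart.

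Tregs are CD4+ T cells that restrain other lymphocytes, and in tumors they are known for holding back anti-tumor T cells. Foxp3 is the transcription factor that sets their identity. CD25, the product of Il2ra, gives them high affinity for interleukin 2, which they need but barely make. Apart from Foxp3, none of these genes is restricted to Tregs: activated effector T cells also carry CD25, OX40 (Tnfrsf4) and GITR (Tnfrsf18), and some natural killer (NK) and innate lymphoid cells express part of the set.

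Responders had 16002778 to 31160578 estimated counts per tumor (median 25627512) and non-responders 19863697 to 28275958 (median 22757658). All 7 genes passed the filter on low counts, as did 15767 features in all. Responder 5 stood apart within its group. It was the lowest responder for each of the 7 genes, and for Cd3e, a chain of the T cell receptor complex, it was the lowest of all 10 tumors. Its library of 25627512 estimated counts was of middle depth, and each of the 7 genes and the main gene lists are therefore given with and without it. Responder 5 was singled out after these values were seen. Leaving out the lowest responder of a gene raises the responder mean of that gene by construction. Values without it therefore describe its weight and are no separate support for a difference.

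Across all features, edgeR called 0 of 15767 between responders and non-responders after Benjamini-Hochberg adjustment (0%), and edgeR called 9 without responder 5, none of them a Treg gene. DESeq2 called 4, but its independent filtering left the 7 Treg genes without an adjusted p. Without that filtering DESeq2 called 1 feature, Col6a2, and the adjusted p of Il2ra was 0.407. At an unadjusted edgeR p under 0.05 there were 1295 features (8.21%), 664 of them higher in responders (4.21%) and 631 lower (4%). These are the shares to set beside the counts of listed genes below. Of the Treg genes, 2 of 7 lay in that higher set, Il2ra and Tnfrsf18. Fitted fold changes were above 0 for all 7, against 48.6% of all features, with a median log2 fold change of 0.28 against -0.0036 over all features. For 0 of the 7 were the groups free of overlap, as they were for 0.926% of all features, and for 0.336% with all responders above. The count of 2 at an unadjusted p under 0.05 became 1 when any of non-responders 2, 3 and 6 or responders 9, 10, 11 and 12 was left out (Il2ra in each case), and 3 without non-responder 1. It was also 1, again Il2ra, with limma-voom and with the Cd3 genes as a covariate in edgeR. The unadjusted p of Tnfrsf18 was then 0.0576 in limma and 0.0889 in edgeR. Without responder 5, 5 of 7 had an unadjusted p under 0.05 and were higher in responders, against 6.85% of all features. Still none passed the adjusted threshold. This rise was largely fixed in advance, because responder 5 was set aside as the lowest responder of each of these genes. The genes move together between tumors, so the 7 are not 7 separate observations.

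**Figure D1:**
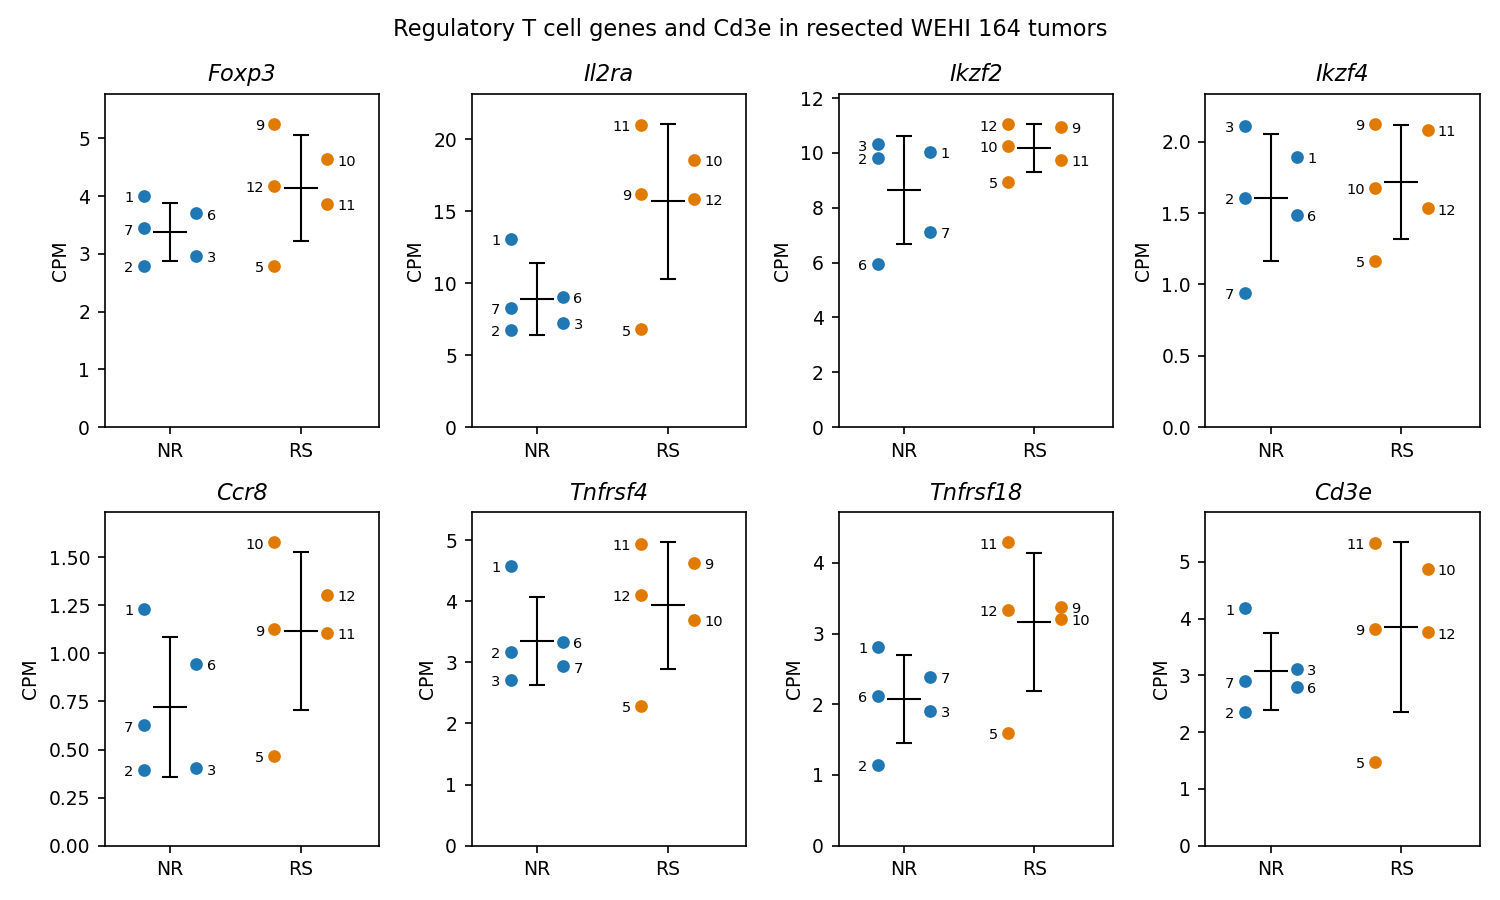
CPM (estimated counts scaled to library size, TMM-normalized) of the 7 Treg genes and Cd3e in each tumor, with non-responders (NR) in blue and responders (RS) in orange. Numbers are tumor numbers, the long bar is the group mean and the capped line the SD (n = 5); responder 5 is the lowest responder in every panel, for example at 6.80 CPM of Il2ra against 15.9 or more in the other 4.

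All 7 genes lie on the GRCm38 assembly as follows, in the GENCODE vM21 annotation. Foxp3 lies at chrX:7573644-7595245 on the plus strand and Il2ra at chr2:11642807-11693193 on the plus strand. Ikzf2 lies at chr1:69531214-69687245 and Ikzf4 at chr10:128630843-128645991, both on the minus strand. Ccr8 is at chr9:120092114-120094906 on the plus strand. Tnfrsf4, at chr4:156013843-156016612, and Tnfrsf18, at chr4:156026164-156028895, are neighbors on the plus strand with 9552 bases between them.

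The promoter windows of Il2ra and Foxp3 are shown because both genes are known to be switched on through NF-kB and STAT factors downstream of T cell and interleukin 2 receptors. Both are the 250 bases before a RefSeq start site on GRCm38.p6, plus strand, and neither holds an annotated UTR piece. The Il2ra window is chr2:11642542-11642791, and the capitals mark matches to an NF-kB type motif (GGG and CC with any 5 bases between them) on both strands and overlapping each other, the first letter 201 bases before the start site.
Il2ra: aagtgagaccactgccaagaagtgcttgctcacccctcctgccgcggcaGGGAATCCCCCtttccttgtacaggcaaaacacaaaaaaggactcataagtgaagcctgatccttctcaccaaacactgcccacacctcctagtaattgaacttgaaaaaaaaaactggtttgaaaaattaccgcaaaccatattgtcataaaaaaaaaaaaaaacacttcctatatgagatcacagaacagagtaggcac
The Foxp3 window is chrX:7580233-7580482, before the more downstream of the gene's RefSeq start sites, and the capitals mark TTCNNNGAA, a STAT type motif that reads the same on both strands, 139 bases before that start.
Foxp3: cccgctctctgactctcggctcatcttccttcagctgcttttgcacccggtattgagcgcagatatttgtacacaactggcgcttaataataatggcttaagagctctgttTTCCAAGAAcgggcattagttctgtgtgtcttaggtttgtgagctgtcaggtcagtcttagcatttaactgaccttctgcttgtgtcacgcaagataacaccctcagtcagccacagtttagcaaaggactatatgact
The NF-kB type letters occur in 51.0% of 32544 RefSeq promoter windows of 300 bases and the STAT type letters in 8.33%, so a match describes the letters and no more. RefSeq windows were at hand for 5 of the 7 genes. Ccr8 had overlapping NF-kB type matches on both strands, 136 bases before its start. The more upstream Foxp3 window, chrX:7579426-7579675, and the window of Tnfrsf4 held no match to any of the motifs before the start site. Another STAT type match, TTCACAGAA, stood 99 bases before the start of Tnfrsf18. A forkhead motif (TGTTTAC, in 3.66% of windows) and an AP-1 motif (TGANTCA, in 7.79%) had no match in the windows of these 5 genes, in a search of both strands.

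Foxp3, the lineage factor, was measured at 59 to 119 estimated counts per tumor. In non-responders 1, 2, 3, 6 and 7 it reached 4.003, 2.79, 2.97, 3.70 and 3.44 CPM. In responders 5, 9, 10, 11 and 12 it reached 2.80, 5.25, 4.64, 3.87 and 4.18 CPM. Responders 9, 10 and 12 lay above every non-responder, responder 11 just under non-responder 1, and responder 5 level with the lowest non-responder. Foxp3 averaged 4.15 ± 0.92 CPM (SD, n = 5) in the responder group against 3.38 ± 0.50 CPM (SD, n = 5) in the other, and its log2 fold change was 0.28 (SE 0.17; 95% interval -0.08 to 0.65). It did not pass the test in edgeR (Benjamini-Hochberg adjusted p = 0.681; unadjusted p = 0.115), and without responder 5 the log2 fold change was 0.40 (edgeR adjusted p = 0.248).

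Flicr, a noncoding gene on the same strand as Foxp3, and Ppp1r3f and Ccdc22 on the other strand overlap it. Of the 31-base words of the Foxp3 transcripts, 26.4% also occur in transcripts of another gene, most of them in Flicr. Flicr has no row under that name among the features. How the estimate assigned reads with such words is not known, so part of the Foxp3 count may come from these other genes. Ppp1r3f and Ccdc22 had log2 fold changes of -0.15 and 0.06, neither past the test.

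Il2ra, the gene of CD25, showed the widest difference of the 7. Its values were 13.1, 6.75, 7.24, 9.02 and 8.29 CPM in non-responders 1, 2, 3, 6 and 7. They were 6.80, 16.2, 18.5, 21.0 and 15.9 CPM in responders 5, 9, 10, 11 and 12. Responders 9 to 12 were all above every non-responder, while responder 5 was lower than all non-responders but number 2. The mean was 15.7 ± 5.38 CPM against 8.87 ± 2.50 CPM (SD, n = 5 each), and the log2 fold change was 0.82 (SE 0.26; 95% interval 0.27 to 1.38). Its unadjusted edgeR p was 0.00701 and its Benjamini-Hochberg adjusted p 0.580, so the difference did not pass the test. Leaving out responder 5 gave a log2 fold change of 1.02 (SE 0.17) and an edgeR adjusted p of 0.0677, still short of 0.05. Of its 31-base words, 2.21% are shared with other genes.

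The other chains of the interleukin 2 receptor, which bind the ligand together with CD25, also had higher means in responders. Il2rb, the beta chain that T and NK cells use for interleukins 2 and 15, stood at 22.6 ± 6.99 CPM in non-responders and 42.2 ± 18.4 CPM in responders, with a log2 fold change of 0.91 (edgeR unadjusted p = 0.0105, adjusted p = 0.580). Il2rg, the common gamma chain, had a log2 fold change of 0.35 (unadjusted p = 0.0275, edgeR adjusted p = 0.591). Il15ra, which begins 12097 bases beyond the end of Il2ra and presents interleukin 15, had one of 0.32 (unadjusted p = 0.0349, edgeR adjusted p = 0.591). The ligand Il2 itself was near the limit of detection, with 0 to 7 estimated counts per tumor, and was not tested. Of 9 genes that carry or answer the receptor's signal, 3 had an unadjusted p under 0.05 with higher values in responders and 0 with lower values, and 0 passed the adjusted threshold. Without responder 5 it was 4 higher. The 3 were Jak3, the kinase bound to the gamma chain (0.28 on the log2 scale), and the feedback genes Cish (0.58) and Socs2 (0.38). Jak1, the most abundant of these 9 at a mean of 223 CPM, differed by 0.02, and Bcl2, a survival gene, by -0.01.

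Ikzf2 encodes Helios, an Ikaros family zinc finger factor carried by most Tregs that arise in the thymus. Non-responders 1, 2, 3, 6 and 7 had 10.03, 9.82, 10.3, 5.95 and 7.12 CPM of it. Responders 5, 9, 10, 11 and 12 had 8.93, 10.9, 10.3, 9.75 and 11.04 CPM. The responders fell in a narrow band inside which non-responders 1, 2 and 3 also lay, and non-responders 6 and 7 were lower than all others. Helios transcripts averaged 10.2 ± 0.87 CPM (SD, n = 5) in the responder group against 8.65 ± 1.98 CPM (SD, n = 5), and the log2 fold change was 0.23 (SE 0.14; edgeR adjusted p = 0.693). It was 0.28 without responder 5 (edgeR adjusted p = 0.449) and 0.13 without non-responder 6.

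Ikzf4 encodes Eos, a relative of Helios that acts with Foxp3 as a co-repressor. It was found at 24 to 64 estimated counts per tumor, or 0.939 to 2.11 CPM in non-responders (median 1.61) and 1.16 to 2.13 CPM in responders (median 1.68). The ranges coincided almost fully. The log2 fold change was 0.10 (SE 0.23; 95% interval -0.41 to 0.60; edgeR adjusted p = 0.938), and it was 0.21 without responder 5 (edgeR adjusted p = 0.741) and -0.05 without non-responder 7.

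The other Ikaros family genes were not past the test either. Ikzf3 (Aiolos), a lymphocyte factor, had a log2 fold change of 0.51 (unadjusted p = 0.113, edgeR adjusted p = 0.680), Ikzf1 (Ikaros) one of 0.06 and Ikzf5, which is broadly expressed, one of -0.04. Of 23 genes for factors that act on or with Foxp3, 2 had an unadjusted p under 0.05 and were higher in responders, and 1 was lower. Over all features 4.21% were higher and 4% lower at that level. The median log2 fold change of the 23 was -0.01. Without responder 5 it was 5 higher and 3 lower, against 13.6% of all features in either direction. With responder 5 kept, those higher were Satb1, a chromatin organizer in T cells (0.69), and Runx3, a factor of cytotoxic lymphocytes (0.28). Cbfb, the partner of all Runx factors and the most abundant gene of this list, was the lower gene (-0.11).

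Ccr8, a chemokine receptor that tumor Tregs carry at high levels, was the scarcest in counts, with 8 to 34 per tumor. In non-responders 1, 2, 3, 6 and 7 it stood at 1.23, 0.393, 0.402, 0.947 and 0.626 CPM. In responders 5, 9, 10, 11 and 12 it stood at 0.466, 1.13, 1.58, 1.11 and 1.30 CPM. Responders 9 to 12 were close to or above the highest non-responder, number 1, and responder 5 lay among the 3 lowest tumors. The log2 fold change of Ccr8 was 0.62 with an SE of 0.37 (95% interval -0.17 to 1.42; edgeR adjusted p = 0.680). Without responder 5 it was 0.83 (unadjusted p = 0.0245; edgeR adjusted p = 0.288), and without non-responder 1 it was 0.90 (unadjusted p = 0.0302; edgeR adjusted p = 0.444). Leaving out each of the other tumors gave 0.46 to 0.75, lowest without non-responder 2 and highest without non-responder 6.

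Its ligands in the mouse include Ccl1 and Ccl8. Ccl8, the more abundant, had 171 ± 88.3 CPM in non-responders and 281 ± 124 CPM in responders (log2 fold change 0.71; unadjusted p = 0.0629; edgeR adjusted p = 0.620). Ccl1 had 8 to 25 estimated counts and a log2 fold change of 0.36 (edgeR adjusted p = 0.802). Of 11 other chemokines and receptors known for drawing Tregs into tissue, 8 were tested, and 3 had an unadjusted p under 0.05 with higher values in responders, or 5 without responder 5. Among them were Ccl5 (1.15 on the log2 scale), a chemokine that T and NK cells release, and Cxcr3 (0.77), a receptor shared with effector T cells. Ccl22, a dendritic cell product that binds Ccr4, had 0.44 (edgeR adjusted p = 0.620), and Ccr4 itself had 0 to 15 counts and was not tested. Cx3cr1, a monocyte and macrophage receptor 22235 bases from Ccr8, had a fold change in the other direction, -0.86 on the log2 scale (unadjusted p = 0.0244, edgeR adjusted p = 0.587).

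Tnfrsf4 encodes OX40, a costimulatory receptor of the TNF receptor family. Non-responders 1, 2, 3, 6 and 7 had 4.57, 3.18, 2.72, 3.34 and 2.93 CPM. Responders 5, 9, 10, 11 and 12 had 2.29, 4.63, 3.70, 4.94 and 4.10 CPM. Responder 5 was the lowest tumor, and non-responder 1 lay among the responders. The log2 fold change was 0.23 (SE 0.20; edgeR adjusted p = 0.788), and 0.38 without responder 5 (edgeR adjusted p = 0.330) and 0.13 without responder 11.

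Tnfrsf18 encodes GITR, a neighbor of OX40 in sequence family and on the chromosome. Its CPM was 2.82, 1.14, 1.91, 2.12 and 2.39 in non-responders 1, 2, 3, 6 and 7. It was 1.59, 3.38, 3.21, 4.29 and 3.33 CPM in responders 5, 9, 10, 11 and 12. As with Il2ra, responders 9 to 12 were above every non-responder and responder 5 was not. Responders 9 to 12 were above every non-responder in 2.11% of all features, wherever responder 5 lay. The mean was 3.16 ± 0.98 CPM against 2.08 ± 0.62 CPM (SD, n = 5 each), and the log2 fold change 0.61 (SE 0.27; 95% interval 0.04 to 1.19; unadjusted p = 0.0385; edgeR adjusted p = 0.591). Without responder 5 it was 0.79 (edgeR adjusted p = 0.141). Of the 31-base words of Tnfrsf18, 21.9% also occur in Gm16008, a noncoding gene that overlaps it on the other strand.

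The ligand of GITR, Tnfsf18, was barely detected. It had 3, 4, 1, 3 and 2 estimated counts in non-responders 1, 2, 3, 6 and 7 and 7, 6, 8, 8 and 11 in responders 5, 9, 10, 11 and 12. Every responder was above every non-responder, and the fitted log2 fold change was 1.59 (SE 0.36; unadjusted p = 0.000754; edgeR adjusted p = 0.580), a value that rests on these few counts. Tnfsf4, the ligand of OX40, had 7 to 38 counts, with a log2 fold change of 0.23 (edgeR adjusted p = 0.906). Of the 10 ligands, receptor partners and relatives tested, 4 had an unadjusted p under 0.05, all with higher values in responders. These were Il2rb, Il2rg, Il15ra and Tnfsf18, the last one tested only because of its level in responders. Without responder 5 it was 6 of 10.

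**Figure D2:**
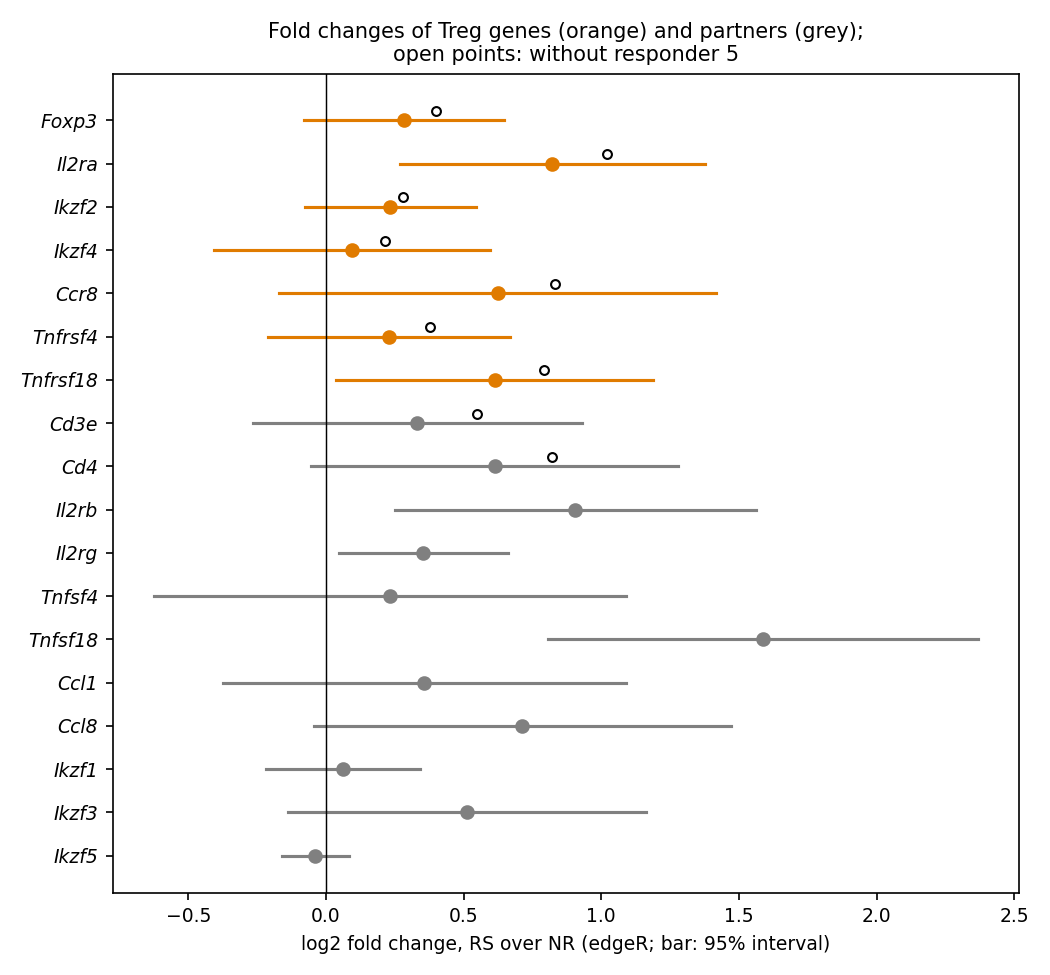
Log2 fold changes of responders over non-responders from edgeR for the 7 Treg genes (orange) and for T cell genes, receptor partners, ligands and relatives (grey), with 95% intervals as bars. Open points are the fold changes without responder 5, given for the Treg genes, Cd3e and Cd4; the intervals of Il2ra (0.27 to 1.38) and Tnfrsf18 (0.04 to 1.19) lie above 0 before adjustment.

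Levels of different genes were compared per length, as TPM (counts divided by the length of the longest annotated transcript and scaled to the same total in every tumor), averaged over the 10 tumors. Tnfrsf4 was highest at 9.05 TPM, followed by Il2ra at 7.52 and Tnfrsf18 at 5.96 TPM. A lower tier held Ikzf2 at 2.76, Foxp3 at 2.66 and Ccr8 at 2.12 TPM, and Ikzf4 was lowest at 0.88 TPM. Each gene's range over tumors overlapped that of its neighbor in this order, from 5.84 to 11.8 TPM for Tnfrsf4 and 4.10 to 12.4 TPM for Il2ra at the top, to 0.899 to 3.66 TPM for Ccr8 and 0.508 to 1.13 TPM for Ikzf4 at the bottom. The highest Ikzf4 value, 1.13 TPM, was below the lowest Foxp3 value, 1.96 TPM. With the mean length of the annotated transcripts in place of the longest, Il2ra led at 9.55 TPM, Ikzf2 stood at 5.92 TPM and Ikzf4 (1.36 TPM) passed Ccr8 (1.20 TPM). For comparison, Cd3e stood at 3.30 ± 0.77 TPM in non-responders and 4.05 ± 1.52 TPM in responders (SD, n = 5 each) on the longest transcript.

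Because Tregs are T cells, each gene was also set against T cell content. Cd3e was 4.18, 2.36, 3.12, 2.80 and 2.89 CPM in non-responders 1, 2, 3, 6 and 7 and 1.48, 3.81, 4.88, 5.33 and 3.76 CPM in responders 5, 9, 10, 11 and 12, a log2 fold change of 0.33 (edgeR adjusted p = 0.773). The wider list of T cell genes had 12 of 14 found and tested, 12 with a fold change above 0 and 2, Lck and Zap70, at an unadjusted p under 0.05 (0.56 and 0.83 on the log2 scale). Its summed level was 68.5, 43.7, 49.2, 56.2 and 48.9 CPM in the non-responders and 41.3, 73.0, 76.4, 90.4 and 62.3 CPM in the responders, in the same order of tumors. Trbc2 was its most abundant gene, and no gene found was at 0 in every tumor. Cd4, the coreceptor of helper cells and Tregs, had a log2 fold change of 0.61 (unadjusted p = 0.0682, edgeR adjusted p = 0.623) and Cd8a, that of cytotoxic T cells, one of 0.13 (edgeR adjusted p = 0.922). Cd3d and Cd3g had 0.14 and 0.54, and neither passed the test. Of Cd4, Cd8a and Cd8b1, 2 of 3 had an unadjusted p under 0.05 without responder 5 and 0 with it. Without responder 5, 9 of the 12 T cell genes had an unadjusted p under 0.05, all higher in responders. The log2 fold change of Cd3e was then 0.55 (edgeR unadjusted p = 0.00902, adjusted p = 0.204). It was 0.18 without responder 11 (edgeR adjusted p = 0.954) and 0.24 without responder 10 (edgeR adjusted p = 0.880).

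Relative to Cd3e, Foxp3 did not separate the groups. The log2 ratio of Foxp3 to Cd3e was 0.13 ± 0.18 for non-responders and 0.16 ± 0.44 for responders (SD, n = 5 each). The groups differed by 0.03 (two-sided exact permutation p = 0.921). Responder 5 had the highest ratio of all, 0.74, with the lowest Cd3e, and responder 11 the lowest, -0.42. Differences in the ratio were also near 0 for Ikzf2 (0.04; exact permutation p = 0.905) and Tnfrsf4 (-0.03; exact permutation p = 0.881). They were -0.13 for Ikzf4 (exact permutation p = 0.587) and 0.20 for Ccr8 (exact permutation p = 0.341). Tnfrsf18 had 0.28 (exact permutation p = 0.0794). Over all features the median difference in this ratio was -0.22, and the difference was above 0 for 7.44% of them. It was above 0 for 5 of the 7 Treg genes, and for 6 of 7 without non-responder 2, responder 10 or responder 11. It was above 0 for 3 of 7 without responder 5, without non-responder 1 or with the mean of the Cd3 genes as denominator. With Cd4 as denominator it was 1 of 7, Il2ra. The share over all features was computed for the main ratio alone, so these other counts have none beside them. Using Cd4 in place of Cd3e lowers the difference of every feature by the same 0.32. The changes in count are therefore not read as a result about the Treg genes.

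Il2ra was the only one of the 7 with groups that did not overlap in this ratio. Its log2 ratio to Cd3e was 1.54, 1.34, 1.098, 1.53 and 1.37 in non-responders 1, 2, 3, 6 and 7. It was 1.88, 1.95, 1.82, 1.88 and 1.94 in responders 5, 9, 10, 11 and 12. Every responder, number 5 included, was above every non-responder, with geometric mean ratios of 3.72 against 2.60 after 0.5 CPM was added to both genes. The difference of 0.52 gave an two-sided exact permutation p of 0.00794, which is the smallest that 5 against 5 allows, and 0.851 after Benjamini-Hochberg adjustment over all features. Of all features, 0.463% were higher in responders at an unadjusted p under 0.05 in this ratio and 0.0951% had groups that did not overlap in either direction. Leaving out any single tumor left the difference between 0.45 and 0.56, and without responder 5 it was 0.52. The size depends on the denominator: it was 0.48 against the mean of Cd3d, Cd3e and Cd3g (exact permutation p = 0.00794), 0.20 against Cd4 (exact permutation p = 0.0476) and 0.54 against Ptprc, the gene of the leukocyte antigen CD45 (exact permutation p = 0.0714). Cd4 itself was higher relative to Cd3e in responders, by 0.32 (exact permutation p = 0.0476). With the mean of the Cd3 genes as a covariate in edgeR, the log2 fold change of Il2ra was 0.47 (SE 0.09; unadjusted p = 0.000265; adjusted p = 0.521) in place of 0.82. The same covariate took the log2 fold change of Foxp3 to 0.14, of Ccr8 to 0.29, of Tnfrsf18 to 0.31 and of Tnfrsf4 to 0.0043, none past the edgeR adjusted threshold.

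**Figure D3:**
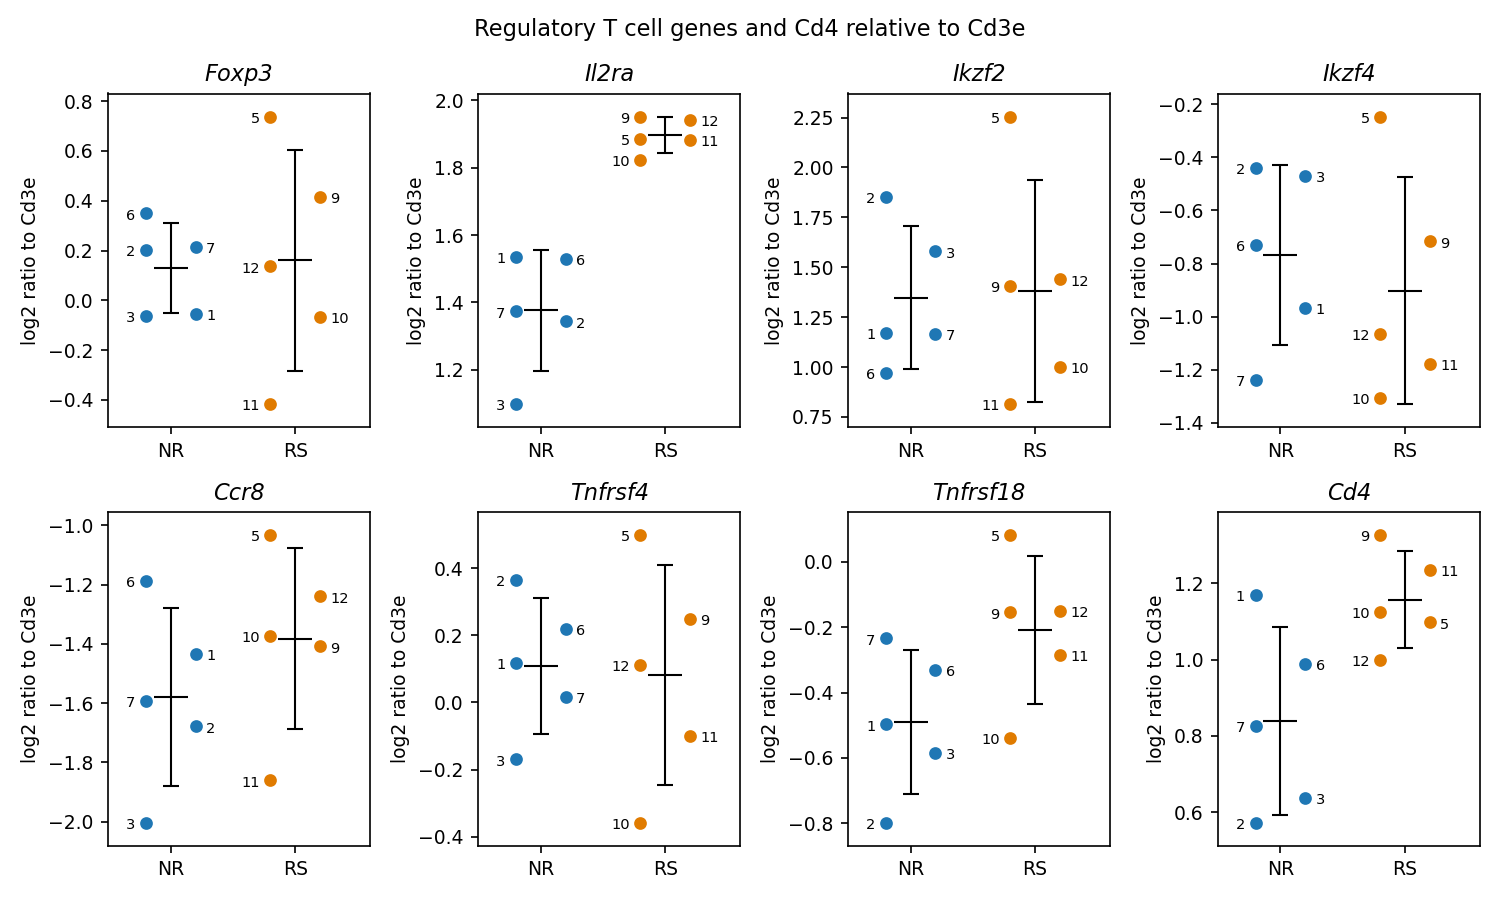
Log2 ratio of each Treg gene and of Cd4 to Cd3e by tumor (CPM with a pseudocount of 0.5), with group means and SDs (n = 5). Axes do not start at 0 and differ between panels; in the Il2ra panel the responders sit between 1.82 and 1.95, all above the non-responders at 1.098 to 1.54, and in the other panels the groups overlap.

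Genes of cytotoxic lymphocytes had higher means in the same group as Il2ra. Of 10 markers of NK and cytotoxic cells, 9 were tested and all 9 had an unadjusted p under 0.05 with higher values in responders, with a median log2 fold change of 0.98 and 0 past the adjusted threshold. Without responder 5 the median was 1.16 and 1 gene, Gzmb, passed it. Their summed level was 109, 48.3, 70.6, 106 and 53.5 CPM in non-responders 1, 2, 3, 6 and 7 and 56.4, 191, 209.5, 337 and 193 CPM in responders 5, 9, 10, 11 and 12. Gzmb, the protease granzyme B, was the most abundant at a mean of 43.7 CPM, and Klra1 was near the limit with 0 to 3 counts. Responder 5 was again among the low tumors and non-responder 1 the highest non-responder. The part of these cells in the values of Il2ra, Tnfrsf4 and Tnfrsf18 was not tested.

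Between tumors, Ccr8, Il2ra, Tnfrsf18 and Tnfrsf4 varied with Foxp3. Over all 10 tumors and the 21 pairs of Treg genes, Pearson's r of log2(CPM + 1) ran from 0.23 to 0.94 with a median of 0.61, highest for Il2ra with Tnfrsf18 and lowest for Ikzf2 with Ccr8. Against Foxp3, Ccr8 had r = 0.89 and Spearman's rho = 0.92 (permutation test, p adjusted over 13 relations = 0.00565 and 0.00539). Leaving out the extremes of Foxp3, which were non-responder 2 and responder 9, gave r = 0.98. Il2ra had r = 0.85 and rho = 0.87 with Foxp3 (adjusted permutation p = 0.00710 and 0.00751), and r = 0.86 without those tumors. Tnfrsf18 had r = 0.82 and rho = 0.85 (adjusted permutation p = 0.00934 and 0.00751), and 0.79 without them. Tnfrsf4 had r = 0.77 and rho = 0.76 (adjusted permutation p = 0.0159 and 0.0240), and 0.78 without them. The correlations of Helios and Eos did not pass the threshold: Ikzf2 had r = 0.28 and rho = 0.54 (adjusted permutation p = 0.445 and 0.135), and Ikzf4 r = 0.38 and rho = 0.43 (adjusted permutation p = 0.312 and 0.218), with r = 0.23 and 0.26 without those tumors. As deviations from the group means, r with Foxp3 was 0.85 for Ccr8, 0.80 for Il2ra, 0.76 for Tnfrsf18 and 0.75 for Tnfrsf4. The rho values of these deviations were 0.87, 0.76, 0.56 and 0.70 in the same order. That of Tnfrsf18 had an unadjusted permutation p of 0.0976.

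**Figure D4:**
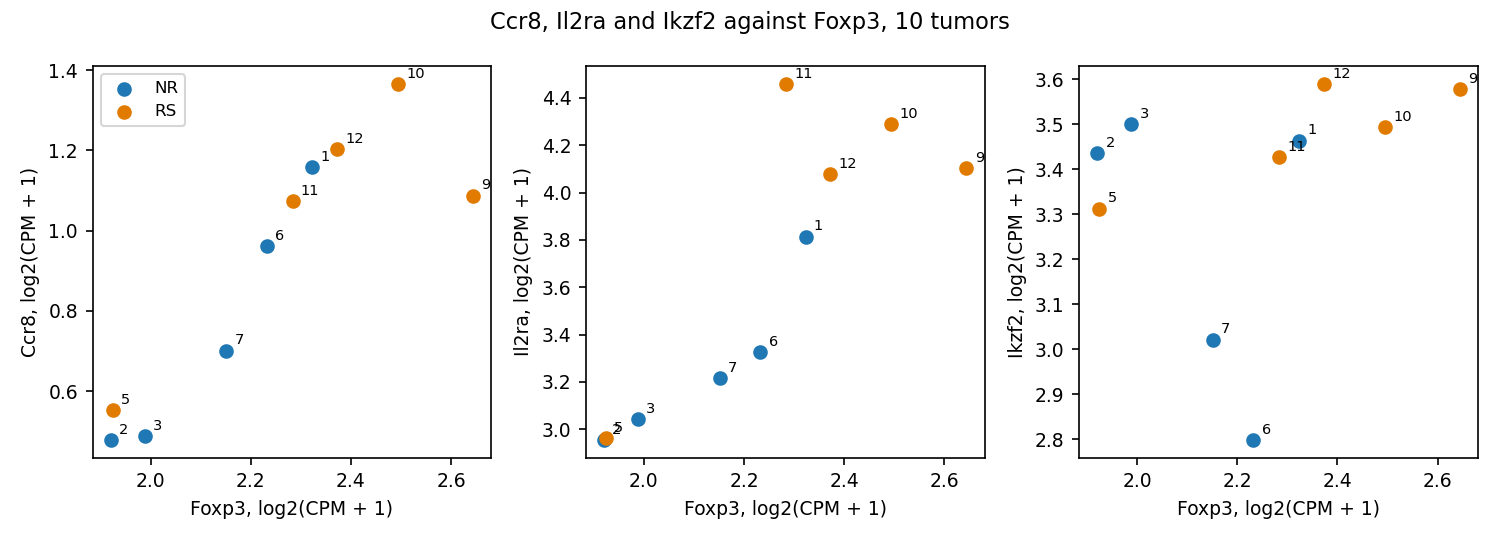
Ccr8, Il2ra and Ikzf2 against Foxp3, all as log2(CPM + 1), with 1 point per tumor (non-responders blue, responders orange) and tumor numbers beside the points. Ccr8 and Il2ra climb with Foxp3 (r = 0.89 and 0.85), and Ikzf2 is scattered (r = 0.28), with non-responders 6 and 7 low.

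The same relations were computed against Cd3e. Il2ra had r = 0.89 and rho = 0.90 (adjusted permutation p = 0.00494 and 0.00539), and r was 0.97 as deviations from the group means and 0.90 without responders 5 and 11, the extremes of Cd3e. Tnfrsf18 had r = 0.86 and rho = 0.85 (adjusted permutation p = 0.00669 and 0.00751), and 0.85 without them. Ccr8 had r = 0.78 and rho = 0.73 (adjusted permutation p = 0.0121 and 0.0291), and 0.86 without them. Foxp3 had r = 0.73 and rho = 0.76 (adjusted permutation p = 0.0216 and 0.0240), and 0.78 without them. As deviations from the group means, Foxp3 had r = 0.72 and rho = 0.60 (unadjusted permutation p = 0.0212 and 0.0735). For Tnfrsf4, r = 0.84 and rho = 0.81 (adjusted permutation p = 0.00669 and 0.0163) rested in part on those tumors, since without them r was 0.65 (exact permutation p = 0.0838). Ikzf4 had r = 0.60 and rho = 0.62 (adjusted permutation p = 0.0852 and 0.0781) and Ikzf2 r = 0.37 and rho = 0.43 (adjusted permutation p = 0.312 and 0.218), and neither passed the threshold, with r = 0.35 and 0.50 without responders 5 and 11. Unadjusted permutation p-values of r over the 13 relations ran from 0.000380 for Il2ra with Cd3e to 0.445 for Ikzf2 with Foxp3. The points share their libraries, so depth and tissue makeup enter both axes.

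The 7 genes were averaged per tumor after each was scaled to a mean of 0 and an SD of 1. Responders 9, 10, 11 and 12 had 0.98, 0.72, 0.89 and 0.61, and responder 5 had -1.095, the lowest of all tumors. Non-responders 2, 3, 6 and 7 had -0.82, -0.49, -0.51 and -0.83, and non-responder 1, at 0.54, lay next to the responders. Of 14937 named features, those most like this mean over the 10 tumors were Ccl7 (r = 0.97), a monocyte chemokine, Psd4 (0.97), Cd6 (0.97), a T cell surface receptor, Cd226 (0.97), an activating receptor of T and NK cells, and Id2 (0.96), a regulator that lymphocytes need. Cd4 ranked 22, Tnfrsf9 46, Cd3e 157, Icos 231 and Cd8a 536. For Foxp3 alone the most alike were Pola2 (0.96), a DNA polymerase subunit, Mocos (0.96), Klri2 (0.94), a lectin-like receptor of NK cells, Gimap5 (0.94), a lymphocyte survival gene, and Mpzl2 (0.91). These are the tops of a ranking of all genes and were not tested.

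Other genes by which Tregs are known behaved unevenly. Of 25 such genes, 22 were tested, 5 had an unadjusted p under 0.05 with higher values in responders, 1 with lower values, and 0 passed the adjusted threshold, with a median log2 fold change of 0.17. Capg, an actin-capping gene of many cell types, was the most abundant of them. Klrg1, a receptor of late effector T, NK and some Treg cells, had 1.70 (unadjusted p = 0.00238), and Tnfrsf9, the costimulatory receptor 4-1BB, had 0.59 (unadjusted p = 0.00714), both with an edgeR adjusted p of 0.580. Both were among the 9 features that passed without responder 5, when 8 of the 22 genes had an unadjusted p under 0.05 with higher values and 2 with lower values. Tnfrsf9 was 44.8, 39.7, 40.9, 35.7 and 33.9 CPM in non-responders 1, 2, 3, 6 and 7 and 30.9, 70.1, 58.0, 75.4 and 58.5 CPM in responders 5, 9, 10, 11 and 12. Izumo1r, the folate receptor 4 of Tregs, had 0.74 (unadjusted p = 0.0260), Tigit, an inhibitory receptor, 0.30 (unadjusted p = 0.0440) and Tnfrsf1b, the TNF receptor type II, 0.18 (unadjusted p = 0.0299), with edgeR adjusted p-values of 0.587, 0.601 and 0.591.

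Lrrc32, the gene of GARP, which holds latent TGF-beta on Tregs and on platelets and endothelium, went the other way. It was 9.55, 9.68, 8.75, 9.38 and 6.84 CPM in non-responders 1, 2, 3, 6 and 7 and 6.87, 6.81, 6.11, 8.23 and 6.86 CPM in responders 5, 9, 10, 11 and 12. Its log2 fold change was -0.34 (SE 0.11; unadjusted p = 0.0111; edgeR adjusted p = 0.580). Nrp1, carried by thymic Tregs and by endothelium and many tumor cells, had -0.18 (edgeR adjusted p = 0.620). Among 4 endothelial markers, none at 0, Cdh5 (-0.39) and Kdr (-0.19) had an unadjusted p under 0.05 with lower values in responders. Pecam1, the most abundant, had a log2 fold change in the other direction, 0.09 (unadjusted p = 0.215), and the summed level of the 4 was 155, 163, 137, 162 and 139.6 CPM in non-responders 1, 2, 3, 6 and 7 and 146, 143, 137, 129 and 141 CPM in responders 5, 9, 10, 11 and 12. The part of endothelium in the values of Lrrc32 and Nrp1 was not tested. Icos, a costimulatory receptor, had 0.63 (unadjusted p = 0.0541, edgeR adjusted p = 0.614), and Itgae, an integrin of tissue T cells, 0.17. Il10, an inhibitory cytokine, had 0.15 at 9 to 48 counts. Ctla4, an inhibitory receptor that Tregs carry throughout, was at 0 counts in 8 of 10 tumors, with 9 counts in non-responder 2 and 2 in responder 11. By sampling alone, 0 counts allows up to 3 counts. The counts are estimates, so a 0 is not read as absence here, and Ctla4 was not tested.

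**Figure D5:**
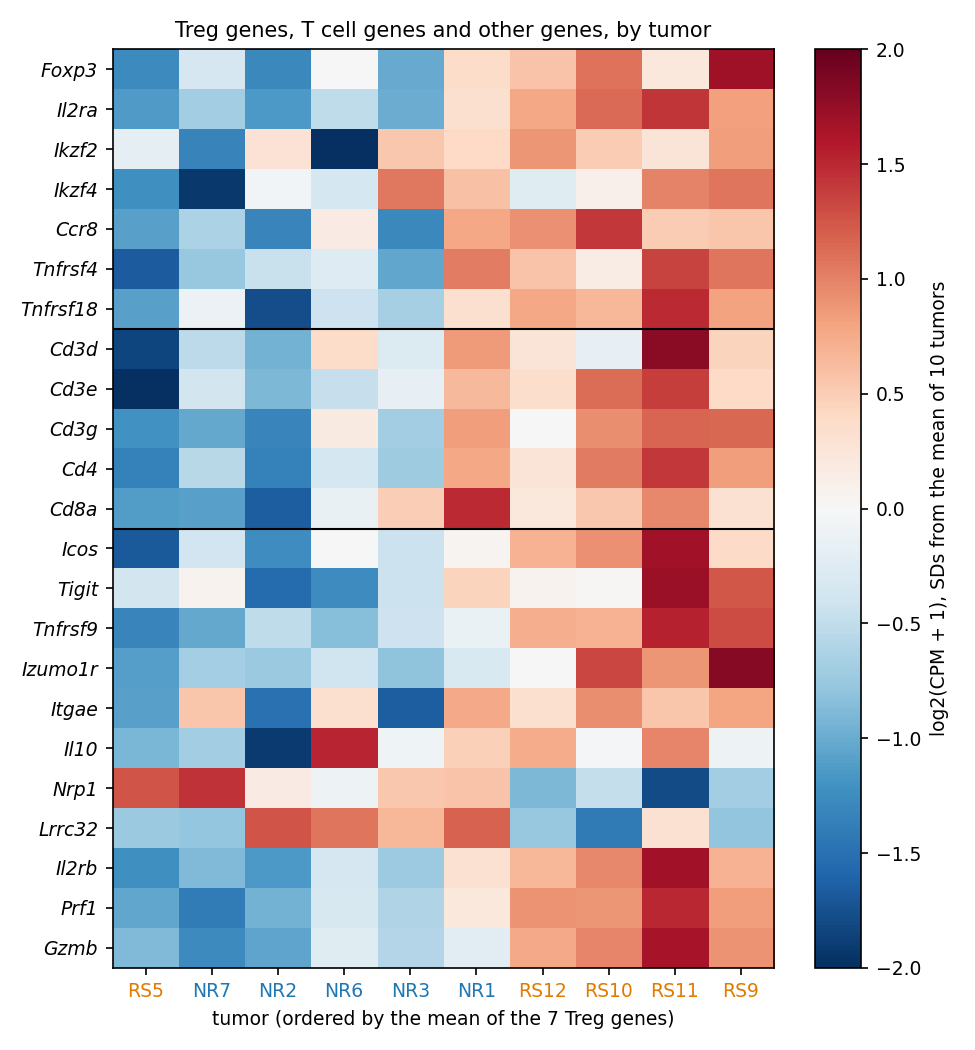
Levels of the 7 Treg genes (top), T cell genes (middle) and other Treg and lymphocyte genes (bottom) as log2(CPM + 1), in SDs from the mean of the 10 tumors, with colors ending at 2 SDs. Tumors are ordered by the mean of the 7 Treg genes: responder 5 is at the low end, responders 9 to 12 and non-responder 1 fill the high end, and Nrp1 is highest in non-responder 7 and responder 5 at the low end (104 and 102 CPM) and lowest in responders 9 to 12.

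Markers of other cell types were read in the same fit, and 0 passed the adjusted threshold in any list with all 10 tumors. Macrophage genes had 8 of 8 fold changes above 0, none at an unadjusted p under 0.05, with a median log2 fold change of 0.14, C1qa being the most abundant (0.14) and Csf1r the gene with the smallest p (0.15). Granulocyte and mast cell genes had 3 of 8 at an unadjusted p under 0.05 and higher in responders, with the smallest p for the mast cell protease Mcpt4 (0.60), and a median of 0.54. Gamma delta T and innate lymphoid genes had 1 of 6, Il7r (0.47), with a median of 0.18, and Kit, the most abundant, had 0.18. B cell genes had 4 of 6 tested, with only Sdc1 (-0.16), which tumor cells also carry, at an unadjusted p under 0.05. Dendritic cell genes had 1 of 8, Fscn1 (-0.20), with a median of 0.02. Tumor and stroma genes had 3 of 6 at an unadjusted p under 0.05 with lower values in responders, with the smallest p for Nes (-0.21), and a median of -0.21, while Vim, the most abundant, had 0.06 and Thy1 0.34. Muscle genes had 1 of 4, Ckm (-0.75), adipocyte genes 0 of 4 and keratinocyte genes 0 of 2 tested, with medians of -0.25, -0.26 and -0.01. Their most abundant genes, Acta1, Fabp4 and Dsp, had -0.22, -0.08 and -0.03. When responder 5 was left out, counts at an unadjusted p under 0.05 with higher values in responders were 2 of 8 for macrophage genes, 5 of 8 for granulocyte and mast cell genes, 2 of 6 for gamma delta T and innate lymphoid genes, and 1 of 8 for dendritic cell genes. Tumor and stroma genes then had 4 of 6 lower and 1 higher, and endothelial genes 2 of 4 lower and 1 higher. The part of these cell types in the values of the 7 Treg genes was not tested.

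Genes that lie within 50000 bases of a Treg gene were read in the same fit, where 8.21% of all features had an unadjusted p under 0.05. Near Il2ra, 1 of 3 tested neighbors did, Il15ra (0.32 on the log2 scale, the same direction as Il2ra), while Rbm17 had -0.01 and Fbh1 0.02. Near Ccr8 it was also 1 of 3, Cx3cr1 (-0.86, the opposite direction), beside Slc25a38 at 0.04 and Rpsa at -0.01. Near Ikzf4 it was 1 of 4, Suox (0.24; unadjusted p = 0.00490; edgeR adjusted p = 0.580), beside Erbb3 at 0.05, Rps26 at 0.04 and Rab5b at -0.02. Near Tnfrsf4 it was 1 of 4, its neighbor Tnfrsf18, beside Sdf4, 233 bases away, at 0.04, B3galt6 at -0.05 and C1qtnf12 at -0.21. Near Tnfrsf18 it was 0 of 3 (Tnfrsf4, Sdf4 and B3galt6). Near Foxp3 it was 0 of 3, with Syp at -0.12 beside Ppp1r3f and Ccdc22. No gene near Ikzf2 was tested.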

How the data were processed

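RNA from 10 untreated tumors was sequenced as polyA libraries of paired 150 base reads. The authors estimated transcript abundance with kallisto, mapped transcripts to genes with tximport on mm10 (GRCm38), and deposited estimated counts per gene, not normalized. Of 36009 rows, 9580 without a gene name held 1.20% to 1.49% of the counts. These rows were kept as separate features, and leaving them out was an alternative chosen after seeing the data. Rows of the same name were summed, and counts were rounded. A feature entered the test if 3 or more tumors had CPM over 0.366. Groups were compared with edgeR 4.0.16 in R 4.3.3 (quasi-likelihood test, TMM, Benjamini-Hochberg over all features, threshold 0.05); DESeq2 1.42.0 and limma 3.58.1 were alternatives. Ratios to Cd3e used exact two-sided permutation of all 252 assignments, and correlations over 10 tumors 100000 resamples. CPM and TPM were computed from the deposited estimated counts, TPM with GENCODE lengths, and a log pseudocount of 1 and a ratio pseudocount of 0.5 were used. Counting error adds to the 10.4% biological coefficient of variation that edgeR estimated, most for Ccr8.

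The genes and the gene lists were chosen with earlier results of these data known. The genes named were the Treg genes, T cell genes, partners, chosen effector genes, the smallest p in each direction and the most abundant gene of each other list, the 5 most alike and the neighbors within 50000 bases; not every gene that this rule gives is printed, and others named from lists were chosen after their values were seen. On simulated data edgeR called 181 of 200 changed genes among 15571 (99% at 4-fold, 82% at 2-fold), 7 unchanged ones, and 0 with nothing changed. The simulated counts had the spread that edgeR fits to genes of like level, without the further spread of single genes. These shares therefore cannot be taken as the power for the 7 Treg genes. Trac, Trbc1 and Trdc were not matched. A member of the chemokine list is not reported here.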

Additional observations from a re-analysis of the deposited data

Results flagged for a closer look

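Of 31 measures in each group of 5 tumors, 3 values lay farther from the rest of their group than Dixon's limit of 0.71 allows, and chance alone gives about 1 in 20, or 3.1 of the 62 groups examined. The log2(CPM + 1) of Il2ra was 2.96 in responder 5, against 4.08 to 4.46 in the other responders. The mean standardized value of the 7 Treg genes was -1.10 in responder 5, against 0.61 to 0.98 in the other responders. The same mean was 0.54 in non-responder 1, against -0.83 to -0.49 in the other non-responders.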

How the results depend on the processing

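No paired analysis was possible because the tumor numbers are unique across the groups. The 0 features that edgeR called became 4 with DESeq2, 1 with DESeq2 without independent filtering (chosen after seeing the data), and 0 to 9 when each tumor was left out in turn, 9 without responder 5, and the cause was not tested. The log2 fold changes of Foxp3, Il2ra, Ikzf2, Ccr8, Tnfrsf4 and Tnfrsf18 stayed above 0 under every alternative, Il2ra from 0.47 to 1.02, and short of the adjusted threshold under each that gave an adjusted p, which DESeq2 with its independent filtering did not for these genes. That of Ikzf4 was -0.073 with the Cd3 genes as a covariate and -0.049 to 0.21 when each tumor was left out. The ratio to Cd3e of Il2ra stayed above 0 throughout. With the mean of the Cd3 genes as denominator the difference was -0.0076 for Foxp3 and -0.0034 for Ikzf2. With Cd4 it was -0.45 for Ikzf4, -0.35 for Tnfrsf4, -0.29 for Foxp3, -0.28 for Ikzf2, -0.12 for Ccr8 and -0.037 for Tnfrsf18. Leaving out each tumor gave -0.11 to 0.18 for Foxp3, -0.18 to 0.18 for Ikzf2 and -0.13 to 0.081 for Tnfrsf4. It gave 0.090 to 0.32 for Ccr8, -0.30 to -0.032 for Ikzf4 and 0.20 to 0.36 for Tnfrsf18. The difference for Ccr8 was 0.37 with a ratio pseudocount of 0.1 and 0.10 with a ratio pseudocount of 1. With mean transcript lengths the level was 5.92 TPM for Ikzf2, 1.36 for Ikzf4 and 6.52 for Tnfrsf4. A pseudocount of 0.1 kept each of the 13 correlations on its side of the threshold. Counts were low for Ccr8, Tnfsf18, Il2 and Ctla4, which limits what can be read from them. Leaving out rows without a gene name, an alternative chosen after seeing the data, left 14944 features with 0 called and 1251 at an unadjusted p under 0.05, with the fold change of Il2ra at 0.83 and 2 of the 7 Treg genes at that unadjusted level.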
